A study of Mus musculus with 23 samples.

Results

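Genes that mark fat cells were followed across RNA-seq libraries of mouse whole hearts and isolated cardiomyocytes, as a per-library measure of the fat carried along with each preparation. The 10 genes were taken by symbol from a deposited table of 46077 genes: Adipoq, Cfd, Retn and Lep (secreted by fat cells), Plin1, Cidec and Lipe (lipid droplet proteins and a lipase), Car3 (a carbonic anhydrase), Ucp1 (the brown fat uncoupling protein) and Pparg (the transcription factor of fat cell formation). All 10 symbols were found in the table.

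All mice were males that carried floxed Panx1 alleles, which encode the pannexin 1 channel. The groups were 4 whole hearts labelled knockout (Panx1MyHC6, in which a Myh6 promoter drives the deletion in cardiomyocytes) and 5 whole hearts labelled wild-type (Panx1fl/fl), all given isoproterenol (15 mg/kg/day, over 14 days). There were 4 knockout and 4 wild-type libraries of isolated cardiomyocytes after the same isoproterenol course, and 3 of each genotype after saline, which the series' design text calls untreated. Isoproterenol is an agonist of beta-adrenergic receptors, which cardiomyocytes and fat cells both carry. The preparations were compared within isoproterenol, the treatment that both had.

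White fat cells store triglyceride in a single large droplet that perilipin 1 (Plin1) coats and CIDEC helps to enlarge, and they release adiponectin (Adipoq), adipsin (Cfd), resistin (Retn, in mice) and leptin (Lep). Brown fat cells burn fat for heat through UCP1 in the inner mitochondrial membrane, and beta-adrenergic signals raise Ucp1 there. Fat lies on the heart at the atrioventricular groove and around the great vessels, and PPARG and hormone-sensitive lipase (Lipe) are also made outside fat, for example in endothelium, macrophages or muscle.

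Adipoq, Plin1 and Ucp1 are shown by the sequence before their transcription start, because Plin1 had the profile most like that of Adipoq across the hearts and Ucp1 departed from both. The 250 bases are RefSeq's on GRCm38.p6, 5′ to 3′ on the gene's own strand, at chr16:23146286-23146535 (plus strand) for Adipoq, chr7:79732777-79733026 (minus strand) for Plin1 and chr8:83290098-83290347 (plus strand) for Ucp1. Capitals mark matches to AGGTCA (letters that nuclear receptors bind), CCAAT or TATAAA on either strand.
Adipoq: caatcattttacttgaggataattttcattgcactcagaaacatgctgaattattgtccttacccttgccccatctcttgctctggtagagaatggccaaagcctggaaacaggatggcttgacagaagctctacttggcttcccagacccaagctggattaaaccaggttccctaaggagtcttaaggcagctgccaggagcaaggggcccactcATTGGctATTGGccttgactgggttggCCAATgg
Plin1: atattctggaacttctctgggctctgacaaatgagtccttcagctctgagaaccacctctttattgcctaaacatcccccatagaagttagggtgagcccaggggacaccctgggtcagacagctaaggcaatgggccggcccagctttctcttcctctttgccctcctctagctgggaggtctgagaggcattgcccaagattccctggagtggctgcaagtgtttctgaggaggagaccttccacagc
Ucp1: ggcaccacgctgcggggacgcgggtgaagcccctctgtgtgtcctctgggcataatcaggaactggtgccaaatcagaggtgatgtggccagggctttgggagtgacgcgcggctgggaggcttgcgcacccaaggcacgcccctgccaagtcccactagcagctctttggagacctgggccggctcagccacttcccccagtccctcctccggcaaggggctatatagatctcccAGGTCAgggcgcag
The Adipoq window held 3 CCAAT matches, the Ucp1 window held 1 AGGTCA match, and the Plin1 window held no match to these letters. Among 32851 mouse promoter windows of this length, 33.8% held CCAAT, 14% held AGGTCA and 12.4% held TATAAA, and the motifs do not overlap one another in the windows printed. A promoter was found for 9 of the 10 members, and the windows of Cidec, Cfd, Retn, Lep and Lipe held none of the 3 motifs. The 3 Pparg windows together held 2 AGGTCA, 3 CCAAT and 1 TATAAA match.

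Reads assigned to genes had a median of 32.9 M per whole heart and 24.6 M per cardiomyocyte library, with no library above 39.6 M, of which mitochondrial genes took 16.7 to 25.4% in hearts and 46.8 to 80.0% in cardiomyocytes. Levels are the authors' FPKM, reads per kilobase of gene and per 1 M reads of a size set for each library, and columns carry a library name but no replicate number. The whole hearts went against their genotype labels: Panx1 was 0.469 to 0.915 FPKM in the 4 hearts labelled knockout, against 0.338 to 0.512 FPKM in the 5 labelled wild-type, with 3 of the 4 above every heart labelled wild-type. It was 0.948 to 1.22 FPKM in knockout and 1.24 to 1.89 FPKM in wild-type isoproterenol cardiomyocytes, which did not overlap. After saline it was 1.28 to 2 FPKM in knockout and 1.57 to 2.89 FPKM in wild-type cardiomyocytes, which overlapped. Panx1 is counted over the whole gene, and non-cardiomyocytes keep it, so these levels are a limited check of the deletion.

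The label cardiomyocyte was also checked against its markers. Summed over 10 cardiomyocyte markers (Myh6, Tnnt2, Ttn and others), levels were 8552 to 17951 FPKM in whole hearts and 1204 to 11772 FPKM in the isolated cells. The 10 endothelial markers summed to 124 to 173 FPKM in hearts, against 206 to 514 FPKM in isolated cells. The 7 erythroid markers summed to 42.9 to 585 FPKM in hearts, against 5569 to 69779 FPKM in isolated cells. Cardiomyocyte transcripts were thus present in every library labelled cardiomyocyte. On the deposited scale these libraries also held more erythroid and endothelial transcripts than any whole heart. The library sizes behind these FPKM were 1.39 to 1.88 times the assigned reads in hearts and 0.43 to 1.39 times in isolated cells. Sums compared between the preparations, the endothelial ones included, depend on that scale. Smooth muscle and pericyte markers, by contrast, summed to 479 to 773 FPKM in hearts, against 129 to 561 FPKM in isolated cells. The part of these in the results below was not tested.

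Fat transcripts were high in some whole hearts and near 0 in others under both genotype labels. Adiponectin (Adipoq, chr16:23146536-23158028 on GRCm38, as are all positions below) is made almost only by fat cells. It stood at 19.3, 15.5, 0.081 and 0.0127 FPKM in hearts PNXM199, PNXM239, PNXM242 and PNXM229, all labelled knockout. In those labelled wild-type it stood at 5.86 (PNXM238), 3.03 (PNXM240), 0.111 (PNXM227), 0.0745 (PNXM230) and 0.0539 FPKM (PNXM241). Thus 4 of the 9 hearts, 2 under each label, were high, and the other 5 rested on 1 to 8 reads against 196 to 1578 reads in the high hearts.

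The remaining secreted proteins followed. Adipsin (Cfd, chr10:79890853-79892656), a protease of the alternative complement pathway, was the most abundant member per length in the high hearts. Its levels were 205, 172, 1.02 and 0.0953 FPKM in PNXM199, PNXM239, PNXM242 and PNXM229, labelled knockout. They were 47.5, 21.1, 2.18, 0.725 and 1.51 FPKM in PNXM238, PNXM240, PNXM227, PNXM230 and PNXM241, labelled wild-type. The same 4 hearts were high, with no overlap with the other 5. Resistin (Retn, chr8:3655770-3660110) reached 7.24 and 5.52 FPKM in PNXM199 and PNXM239 and 1.02 and 0.446 FPKM in PNXM238 and PNXM240, and was at most 0.101 FPKM in the remaining hearts.

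Leptin (Lep, chr6:29060220-29073877), the satiety hormone of white fat, was the lowest member in each of the 4 high hearts. It was 0.464 and 0.577 FPKM (92 and 109 reads) in PNXM199 and PNXM239, labelled knockout, and 0 in the other 2 hearts of that label. It lay between 0 and 0.0572 FPKM (at most 9 reads) in the 5 hearts labelled wild-type. Of the 14 cardiomyocyte libraries 13 had no Lep read, which allows up to 0.0216 to 0.0921 FPKM (3 reads, counting error only).

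The droplet proteins ran almost level with Adipoq. Perilipin 1 (Plin1, chr7:79721164-79732776), which guards the droplet surface from lipases, was at 19.4, 12.4, 0.0667 and 0.0551 FPKM in PNXM199, PNXM239, PNXM242 and PNXM229, labelled knockout. It was at 6.89, 3.08, 0.12, 0.0895 and 0.0518 FPKM in PNXM238, PNXM240, PNXM227, PNXM230 and PNXM241, labelled wild-type. CIDEC (Cidec, chr6:113424634-113435760), which joins droplets into larger ones, was at 23.9 and 15 FPKM in PNXM199 and PNXM239, at 7.99 and 3.88 FPKM in PNXM238 and PNXM240, and at no more than 0.507 FPKM in the other 5. Car3 (chr3:14863512-14872523), a carbonic anhydrase abundant in fat and in slow skeletal muscle, was at 74.5 and 54.3 FPKM in PNXM199 and PNXM239 and at 22.3 and 11.2 FPKM in PNXM238 and PNXM240. It was at 0.117 to 1.48 FPKM in the other hearts, so that for each of these genes the groups by label overlapped while the same 4 hearts stood above the rest.

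**Figure D1:**
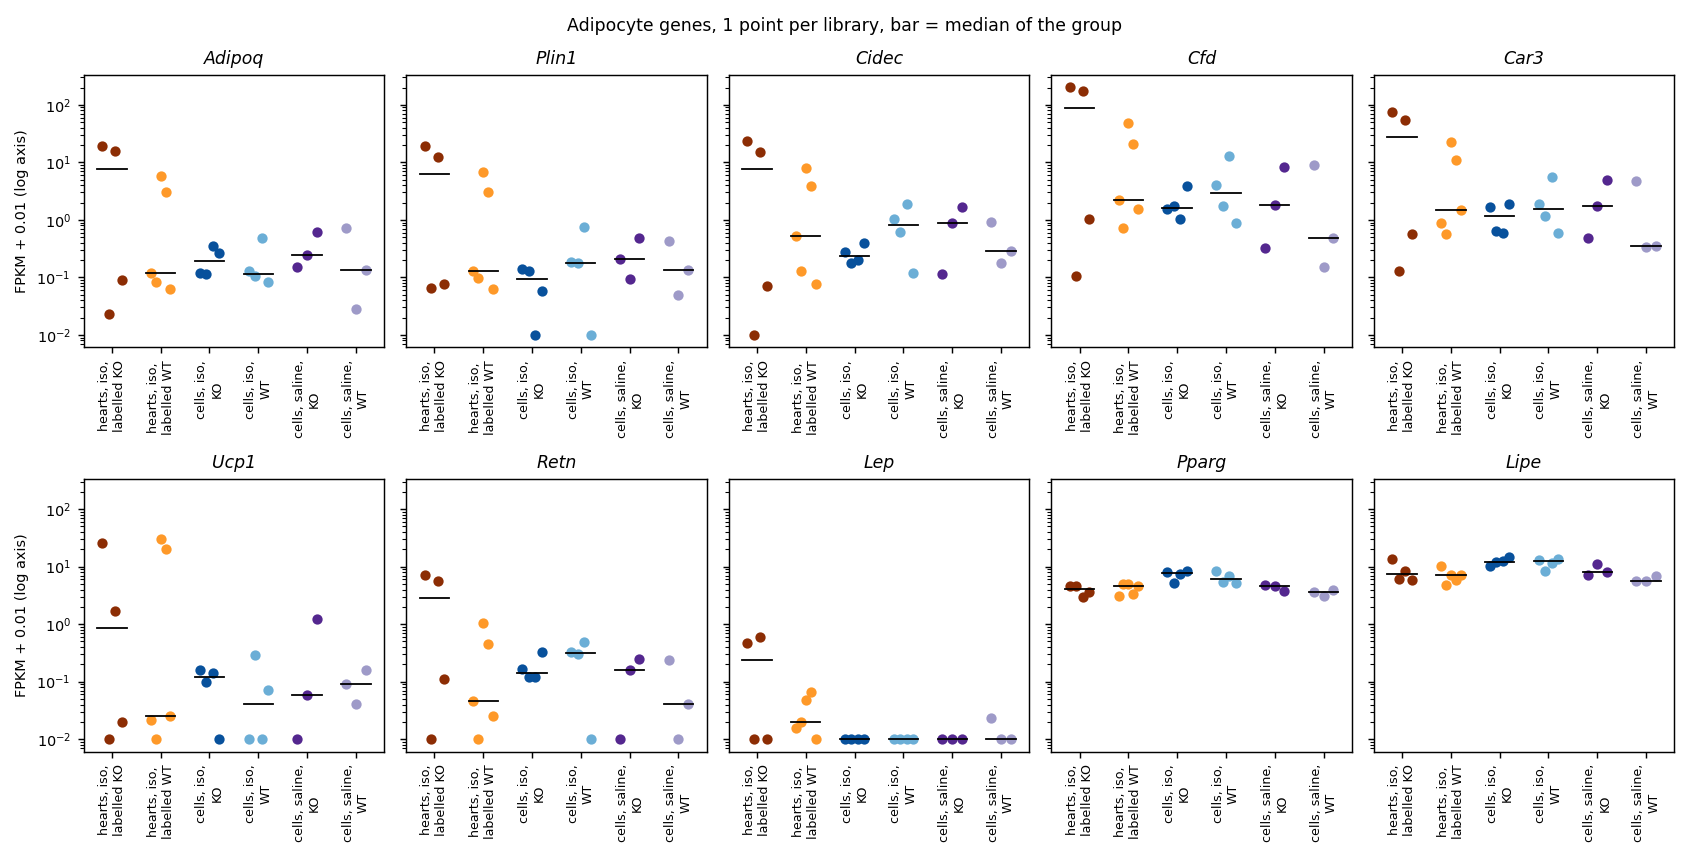
Level of each adipocyte gene in the 23 libraries, as FPKM plus 0.01 on a log axis, by group (iso, isoproterenol; hearts, whole hearts; cells, isolated cardiomyocytes), with 1 point per library and a bar at the group median. Under each label 2 hearts are high for Adipoq (3.03 to 19.3 FPKM), Plin1, Cidec, Cfd, Car3, Ucp1 and Retn, while Pparg and Lipe lie within a narrow range in every group.

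Ucp1 (chr8:83290348-83298456) marked the same 4 hearts but in another order. It stood at 25.4, 1.68, 0.00972 and 0 FPKM in PNXM199, PNXM239, PNXM242 and PNXM229, labelled knockout. It stood at 30.7, 20.3, 0.0117, 0 and 0.0151 FPKM in PNXM238, PNXM240, PNXM227, PNXM230 and PNXM241, labelled wild-type. The heart with the second highest Adipoq, PNXM239, thus had the lowest Ucp1 of the 4, on 156 reads, while the 2 high hearts labelled wild-type had more Ucp1 than PNXM239 with less Adipoq.

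The ratio of each gene to Adipoq, both per length, describes how the fat signal was made up in the 4 hearts with at least 100 Adipoq reads. Car3 varied least, at 3.85 and 3.5 times Adipoq in PNXM199 and PNXM239 and at 3.8 and 3.69 times in PNXM238 and PNXM240. Plin1 ranged from 0.798 to 1.18 times, Cidec from 0.965 to 1.36 times and Cfd from 6.96 to 11.1 times Adipoq. These 4 genes kept nearly fixed proportions while Adipoq itself ranged from 3.03 to 19.3 FPKM.

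Ucp1 and Retn did not keep such proportions. The Ucp1 ratio was 1.32 and 0.109 in PNXM199 and PNXM239, labelled knockout, and 5.24 and 6.71 in PNXM238 and PNXM240, labelled wild-type. The Retn ratio was 0.375 and 0.356 in PNXM199 and PNXM239, against 0.174 and 0.147 in PNXM238 and PNXM240, and the Lep ratio was 0.024 and 0.0372 against 0.00636 and 0.0189. Ucp1 was therefore the member whose share of the fat signal differed most among these hearts, and Retn and Lep had the larger shares where Ucp1 had the smaller ones.

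**Figure D2:**
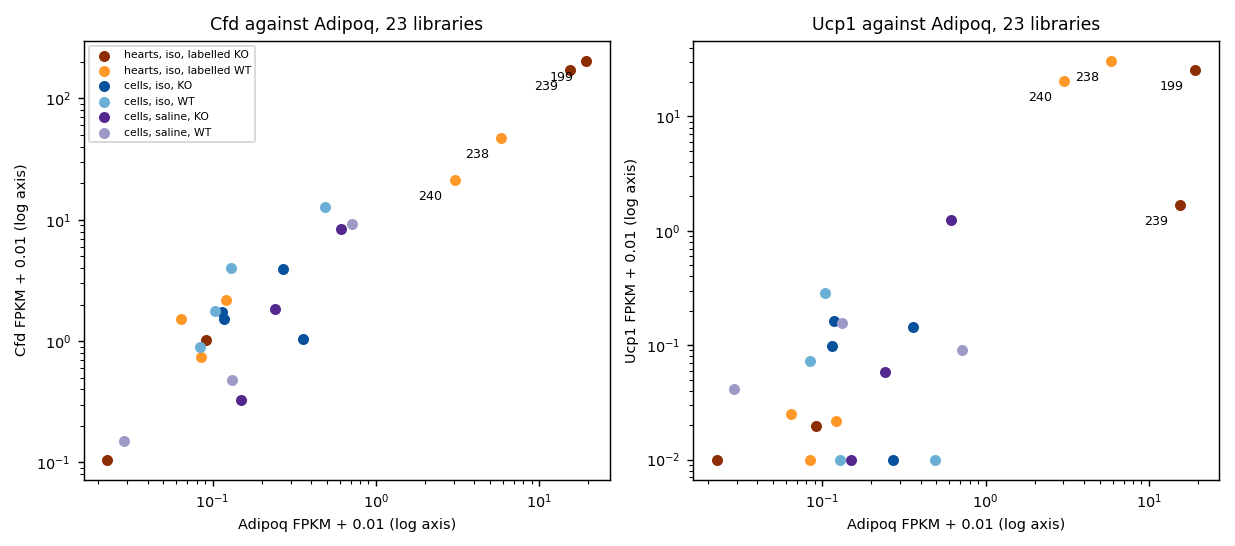
Cfd (left) and Ucp1 (right) against Adipoq in 23 libraries, each as FPKM plus 0.01 on log axes, 1 point per library coloured by group; numbers name the 4 hearts with at least 100 Adipoq reads. Cfd is high in the same 4 hearts as Adipoq (21.1 to 205 FPKM), whereas for Ucp1 heart 239 (1.68 FPKM of Ucp1) falls far below the other 3 (20.3 to 30.7 FPKM).

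Other brown fat genes showed no single pattern across the hearts. Elovl3, a fatty acid elongase induced in brown fat, was at 0.634 and 0.0594 FPKM in PNXM199 and PNXM239, at 2.27 and 0.528 FPKM in PNXM238 and PNXM240, and at 0 to 0.233 FPKM in the other hearts. Dio2, the deiodinase that activates thyroid hormone in brown fat, was at 1.48 and 0.983 FPKM in PNXM238 and PNXM240, and at no more than 0.58 FPKM elsewhere. Otop1 was at 1.15, 0.18, 0.623 and 0.372 FPKM in PNXM199, PNXM239, PNXM238 and PNXM240 and at 0 in the other 5. Zic1 and Lhx8, factors of classical (interscapular) brown fat, stayed at or below 0.0303 FPKM in all 9 hearts. Cidea, another brown fat gene, was at 12.1 to 40.2 FPKM in the hearts with no separation between the 4 and the others, and Prdm16 was at 0.595 to 1.61 FPKM. These genes, and Myl7, Acta2 and Lepr below, were named after their values were seen.

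The 2 remaining members were present in all libraries and did not follow Adipoq. Pparg (chr6:115361221-115490401) was at 4.63, 3, 3.64 and 4.64 FPKM in PNXM199, PNXM239, PNXM242 and PNXM229, labelled knockout, against 4.96, 3.35, 3.14, 5.01 and 4.68 FPKM in PNXM238, PNXM240, PNXM227, PNXM230 and PNXM241, labelled wild-type. Lipe (chr7:25379527-25398710), which hydrolyses diglycerides, was at 13.5, 8.48, 5.76 and 6.18 FPKM in the same 4 hearts labelled knockout, against 7.24, 5.89, 10.3, 4.88 and 7.27 FPKM in the 5 labelled wild-type. Only PNXM199 stood slightly above the rest for Lipe, and the 2 labels overlapped for both genes.

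The genes whose level across the 9 hearts was most like that of Adipoq were named by Pearson's r of log2(FPKM + 1), used as a measure of likeness only, since the hearts form separate clusters and share their preparation. The 10 nearest protein-coding genes were Plin1 (r = 0.998), Cidec (0.995), Car3 (0.991), Cfd (0.991), Scd1 (0.989), Cebpa (0.986), Cdo1 (0.98), Slc25a1 (0.979), Aoc3 (0.976) and Hp (0.975). The first 4 are members. Only genes with at least 1 FPKM in at least 4 of the 9 hearts were ranked. Plin1, Cidec, Car3, Cfd, Ucp1 and Hp met this only with the 4 high hearts, and Retn and Lep did not meet it. The ranking is therefore over a set that the high hearts helped to select. Scd1, a fatty acid desaturase, was at 122 and 80.5 FPKM in PNXM199 and PNXM239, at 60 and 21.9 FPKM in PNXM238 and PNXM240, and at 2.69 to 3.6 FPKM in the other 5. Cebpa, a transcription factor of fat cell formation, was at 15.8, 12.1, 6.41 and 5.04 FPKM in the 4 high hearts in that order and at 2.51 to 3.01 FPKM in the rest.

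Of the 4 others, Cdo1 makes cysteine sulfinate, Slc25a1 exports mitochondrial citrate, Aoc3 is an amine oxidase of fat and vessel walls, and Hp is haptoglobin. Each was higher in all 4 fat-rich hearts than in any other heart, Hp at 39.5, 28.4, 11.8 and 5.59 FPKM against 0.354 to 2.79 FPKM. They were chosen for their likeness to Adipoq over these same hearts, so this separation largely follows from the choice. It was not counted over all genes. Ucp1 had an r of 0.766, Lipe 0.58 and Pparg -0.14. Without PNXM199 and PNXM239, the 2 hearts farthest from the Adipoq median, the r of Ucp1 was 0.992, that of Lipe 0.0186 and that of Pparg 0.0463, and those of the 10 named genes were 0.921 to 0.999.

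**Figure D3:**
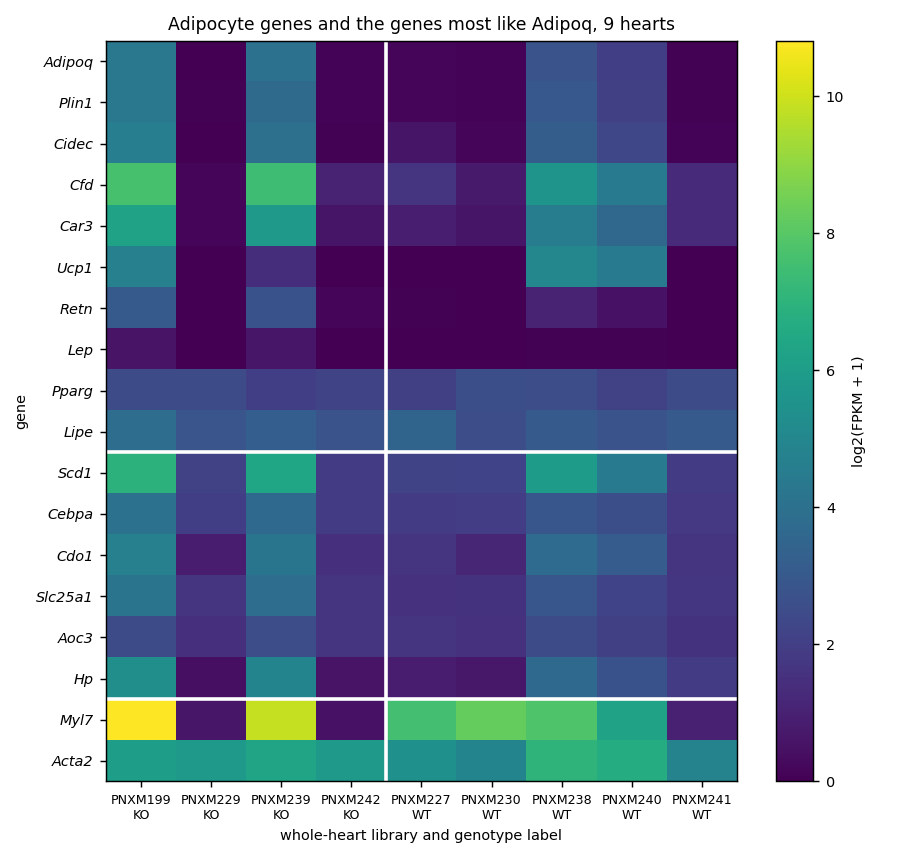
Levels in the 9 whole hearts as log2(FPKM + 1) (colour), with the adipocyte genes above, the other 6 genes most like Adipoq in the middle and the atrial gene Myl7 and smooth muscle gene Acta2 at the bottom; hearts labelled knockout (KO) are left of those labelled wild-type (WT). The columns PNXM199, PNXM239, PNXM238 and PNXM240 are bright for all genes like Adipoq, while Pparg (3 to 5.01 FPKM) shows no such columns.

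Some markers of other tissues were higher in fat-rich hearts and others were not. Summed over 8 atrial markers, levels were 5539 and 2844 FPKM in PNXM199 and PNXM239 and 234 and 642 FPKM in PNXM242 and PNXM229, labelled knockout. They were 828, 232, 720, 1298 and 93.2 FPKM in PNXM238, PNXM240, PNXM227, PNXM230 and PNXM241, labelled wild-type. PNXM199 and PNXM239 thus stood above the other hearts, while PNXM238 and PNXM240 lay among hearts with little fat signal. Myl7, the atrial myosin light chain, was at 1799 and 923 FPKM in PNXM199 and PNXM239 and at 0.433 and 0.566 FPKM in PNXM242 and PNXM229, labelled knockout. It was at 229, 74.1, 189, 308 and 0.968 FPKM in PNXM238, PNXM240, PNXM227, PNXM230 and PNXM241, labelled wild-type. Myl7 was thus at 74.1 FPKM or more in the 4 fat-rich hearts and in 2 hearts with little fat signal, and below 1 FPKM, on 16 to 23 reads, in the other 3.

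The 6 lung and airway markers (Sftpc, Scgb1a1 and others) summed to 339 and 386 FPKM in PNXM199 and PNXM239 and to 0.143 to 8.46 FPKM in the other 7 hearts. The 12 epicardium and mesothelium markers summed to 60.5 and 40 FPKM in PNXM199 and PNXM239 and to 24.2 and 17.9 FPKM in PNXM238 and PNXM240, against 6.47 to 19.1 FPKM in the other 5. The neutrophil markers summed to 10.7 and 13.1 FPKM in PNXM199 and PNXM239, against 0.212 to 2.69 FPKM in the other 7, and the Schwann cell and nerve markers to 8.96 and 7.8 FPKM, against 1.89 to 3.28 FPKM. The lymphocyte and thymus markers summed to 3.21 and 7.13 FPKM in PNXM199 and PNXM239, against 0.317 to 1.32 FPKM in the other 7. The atrial, lung and airway, epicardial, neutrophil, lymphocyte and Schwann cell lists were thus highest in PNXM199 and PNXM239. The 8 smooth muscle and pericyte markers did not follow fat: they summed to 487 and 480 FPKM in PNXM199 and PNXM239 and to 675 and 597 FPKM in PNXM238 and PNXM240, against 479 to 773 FPKM in the other 5, and were highest in PNXM229. One gene of that list, Acta2, was at 65, 77.7, 130 and 102 FPKM in PNXM199, PNXM239, PNXM238 and PNXM240, against 27.5 to 54.9 FPKM in the other 5. The 12 preadipocyte and fibroblast markers summed to 528 and 396 FPKM in PNXM199 and PNXM239, to 338 and 380 FPKM in PNXM238 and PNXM240, and to 279 to 319 FPKM in the rest. Transcript levels in bulk RNA cannot tell more fat cells from more RNA per fat cell, and the part of the other tissues in the fat gene levels was not tested.

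Set against isolated cardiomyocytes of the same isoproterenol course, no adipocyte gene was called higher in whole hearts, and the members called were lower there. Hearts labelled wild-type had Pparg at 4.23 ± 0.907 FPKM (SD, n = 5), against 6.52 ± 1.57 FPKM (SD, n = 4) in cardiomyocytes, a difference of -0.52 ± 0.17 (SE) in log2(FPKM + 1). Lipe was at 7.13 ± 2.06 FPKM in hearts, against 11.7 ± 2.3 FPKM in cardiomyocytes, a difference of -0.66 ± 0.22. Both passed limma's test (adjusted p = 0.0142 and 0.0156), so 2 of the 8 members above the filter were called, beside 63.9% of all 11386 genes tested (35.0% higher and 28.9% lower in hearts). Adipoq, Plin1 and Ucp1 passed the filter of 1 FPKM in at least 4 libraries only through the 4 fat-rich hearts, since no isoproterenol cardiomyocyte library reached 1 FPKM of any of these 3 genes. Cidec also needed these hearts to pass, since elsewhere only cardiomyocyte libraries PNXM644 (1.02 FPKM) and PNXM647 (1.88 FPKM) reached 1 FPKM. The 8 are therefore a selected set and their differences support no statement about the members together. No Pparg level overlapped between the groups, which was not counted over all genes. Lipe did overlap, since heart PNXM227 had 10.3 FPKM and cardiomyocyte library PNXM645 had 8.48 FPKM.

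The other members above the filter were not called in that comparison, and for Adipoq 3 of the 5 hearts lay at the level of the cardiomyocyte libraries. Adipoq was at 0.119, 0.094, 0.479 and 0.0743 FPKM in the cardiomyocyte libraries PNXM644, PNXM645, PNXM647 and PNXM648, on 1 to 7 reads each. The log2 differences, hearts minus cardiomyocytes, were 0.78 ± 0.81 for Adipoq, 0.76 ± 0.80 for Plin1, 0.42 ± 0.86 for Cidec, 0.65 ± 1.41 for Cfd, 0.70 ± 1.13 for Car3 and 1.78 ± 1.06 for Ucp1, with limma adjusted p of 0.153 to 0.7. Retn and Lep were below the filter. Both calls depended on the scale of the libraries. With totals set equal outside mitochondrial genes, the median over all genes was 0.34 in place of 0.10, the split of calls was 5294 higher and 1933 lower in place of 3988 and 3293, Pparg was at -0.21 (adjusted p = 0.423) and Lipe at -0.32 (adjusted p = 0.237). With reads scaled by library size alone the same median was 1.72 and both genes reversed, to 0.97 and 0.86, which is 0.75 and 0.86 under that median, among 9244 genes called higher and 509 lower. Leaving out cardiomyocyte library PNXM644 moved Pparg to an adjusted p of 0.0635.

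Under the knockout label 6 fat genes again had higher means in hearts on the log scale, with wide errors. The same filter had selected Adipoq, Plin1, Cidec and Ucp1 only through the fat-rich hearts. Hearts labelled knockout minus knockout cardiomyocytes gave 1.87 ± 0.85 for Adipoq, 1.96 ± 0.85 for Plin1, 1.86 ± 0.91 for Cidec, 2.54 ± 1.48 for Cfd, 2.13 ± 1.19 for Car3 and 1.41 ± 1.12 for Ucp1 in log2(FPKM + 1), none past limma's test (adjusted p of 0.0711 to 0.323). Adipoq was at 0.108, 0.104, 0.347 and 0.26 FPKM in the cardiomyocyte libraries PNXM646, PNXM654, PNXM655 and PNXM656. Pparg was lower in hearts, at 3.98 ± 0.802 FPKM against 7.28 ± 1.43 FPKM in cardiomyocytes (SD, n = 4 each), a difference of -0.73 ± 0.18 (limma adjusted p = 0.00415). Its levels did not overlap, which again was not counted over all genes. Lipe was at 8.48 ± 3.56 FPKM against 12.3 ± 1.83 FPKM, a difference of -0.55 ± 0.23 (adjusted p = 0.0689). That is 1 of 8 members called, beside 42.7% of all genes (23.1% higher and 19.6% lower in hearts).

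The result under the knockout label turned on single hearts, and the filter had selected Adipoq, Plin1, Cidec and Ucp1 as above. Without PNXM229, the heart with the least fat signal, 6 members were called, beside 4028 of all 11386 genes. They were Pparg and, in log2, Adipoq at 2.57 (limma adjusted p = 0.0241), Plin1 at 2.63, Cidec at 2.58, Cfd at 3.85 and Car3 at 3.14. Without PNXM242 there were 4 (Adipoq, Plin1, Cidec and Pparg), beside 3838 genes. Without PNXM199 there were 2 (Pparg and Lipe, at -0.78 with a limma adjusted p of 0.00822), beside 4848 genes. PNXM229 and PNXM242 had low levels of these same fat genes, so no conclusion is drawn from the calls made without them. With reads scaled by library size alone, where the median of all genes was 0.98 and 7841 genes were called higher and 604 lower in place of 2633 and 2228, Pparg was at 0.032 and 0 members were called. The preparation effects under the 2 genotype labels were not shown to differ: in limma's test of the difference 0 of 8 members and 0% of 11386 genes were called (1240 at an unadjusted p under 0.05), with 1.08 ± 1.17 for Adipoq and -0.36 ± 1.54 for Ucp1. With the sizes of the deposited values voom also called 0 genes, and with library size alone it called 3608, Pparg (-0.94) among them.

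**Figure D4:**
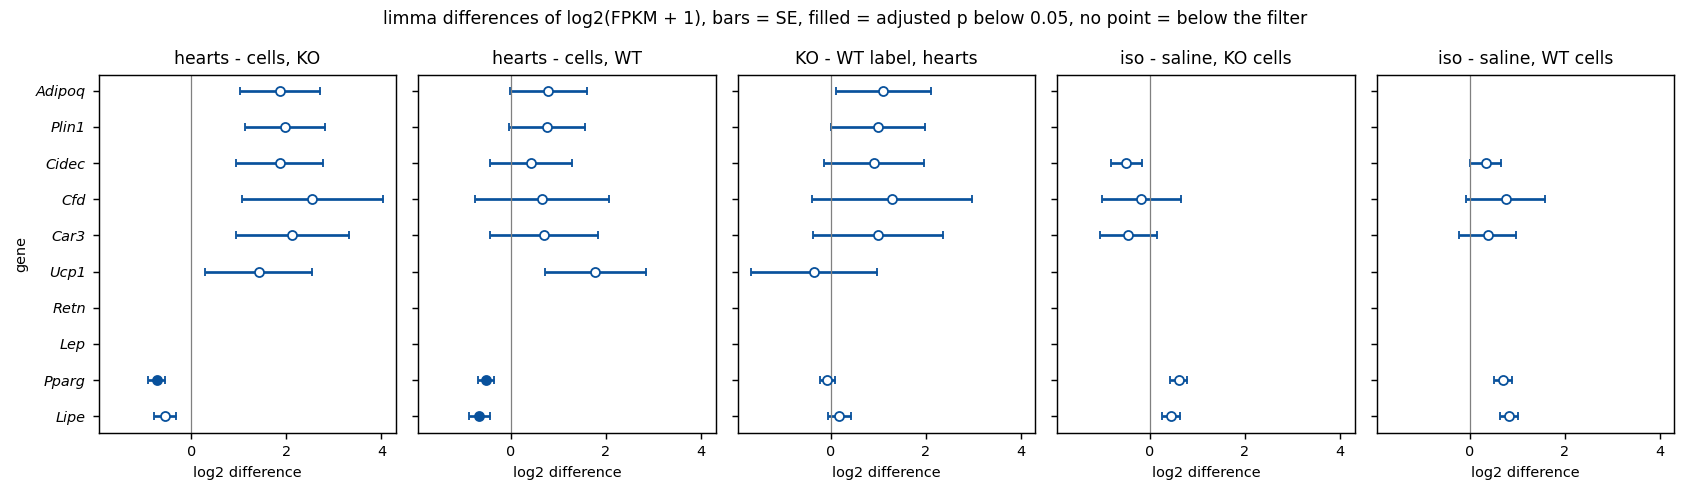
Log2 differences of the adipocyte genes in 5 comparisons (points, with bars of 1 SE, from limma on log2(FPKM + 1)); filled points passed the adjusted p of 0.05 and genes with no point were below the filter. In hearts minus cells the genes that were high in the fat-rich hearts have wide bars, as Cfd at 2.54 ± 1.48 under the knockout label. Only Pparg (both labels) and Lipe (wild-type) are filled, below 0.

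Genes known from fat but also used by muscle, vessels or macrophages were counted in the same wild-type comparison, list by list. The lists were chosen with earlier results of these data known, and their counts stand beside 63.9% of all genes called, 35.0% higher and 28.9% lower. They were counted on the deposited scale only. With library size alone, the median of all genes was 1.72 in place of 0.10, with 9244 called higher and 509 lower. The directions and medians of the lists may therefore not hold on another scale. Of 40 other adipocyte genes 38 were in the table and 30 were tested, of which 11 were higher and 6 lower in hearts (56.7% called, below the share over all genes, median 0.41). The 4 with the smallest p were higher in hearts: Gpam (2.50 ± 0.25) and Lpin1 (2.25 ± 0.22), which act in glyceride synthesis, Acsl1 (2.74 ± 0.30), which activates fatty acids, and the droplet protein Plin4 (2.24 ± 0.27). Of 23 brown and thermogenic genes 22 were in the table and 14 were tested, 8 higher and 3 lower (78.6% called) with a median of 1.31, among them Ppargc1a (3.03 ± 0.29), the coactivator of mitochondrial biogenesis, Ppara (2.25 ± 0.25) and Pank1 (2.10 ± 0.24), and the uncoupling protein homologue Ucp2 at -1.97 ± 0.31.

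Droplet and transcription factor genes moved both ways. Of 18 droplet proteins and lipases 15 were tested, 7 higher and 4 lower (73.3% called), with Plin5, the perilipin of oxidative muscle, at 2.32 ± 0.39, the lipase coactivator Abhd5 at 1.05 ± 0.13 and the monoglyceride lipase Mgll at -1.23 ± 0.16. Of 18 adipogenic transcription factors 17 were tested, 5 higher and 6 lower (64.7% called), with Klf15 at 1.85 ± 0.21, Rxrg at 1.76 ± 0.32 and Zfp423 at -0.78 ± 0.15. The medians of these lists were 1.05 and -0.08, beside 0.10 over all genes.

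In a list of receptors and binding proteins, not all of them for fat cell hormones, 6 of 8 genes were tested. Of these 4 were higher and 0 lower with a median of 0.76, beside 63.9% of all genes called (35.0% higher and 28.9% lower). The 4 were Lgr4 (1.16 ± 0.11), the insulin receptor Insr (1.59 ± 0.22), the adiponectin receptor Adipor2 (0.71 ± 0.11) and Cdh13 (0.80 ± 0.14), a cadherin that binds adiponectin. Adipor2 was at 10.7 to 12.5 FPKM in hearts labelled knockout and 10.9 to 13.4 FPKM in those labelled wild-type, against 5.71 to 9.63 FPKM in the 14 cardiomyocyte libraries. These preparations did not overlap for Adipor2, which was not counted over all genes. The leptin receptor Lepr was at 0.173 to 0.573 FPKM in hearts and 0.376 to 1.24 FPKM in cardiomyocyte libraries and was not tested.

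On the deposited scale, more of the tested relatives and partners of 3 members were called lower than higher in hearts. These counts rest on few genes and stand beside 63.9% of all genes called under the wild-type label (35.0% higher and 28.9% lower). Both resistin-like genes tested were lower in hearts, Retnla at -2.80 ± 0.50 and Retnlg, a neutrophil gene, at -4.76 ± 0.89 (median -3.78). Of 8 alternative complement genes, through which adipsin acts, 5 were tested with a median of -1.36, 1 was higher (Cd59a, a membrane inhibitor, 0.94 ± 0.31) and 3 lower: C3 (-3.10 ± 0.41), properdin (Cfp, -2.64 ± 0.35) and the inhibitor Cd55 (-1.36 ± 0.26). Among carbonic anhydrases 6 of 15 were tested with a median of -0.91, with Car14 higher (2.19 ± 0.33) and Car7 (-1.42 ± 0.15), Car8 (-0.89 ± 0.21), Car4 (-0.93 ± 0.24) and Car2 (-1.42 ± 0.42) lower. Of 10 fat uptake genes shared with endothelium or muscle 4 were higher, Acsl1, Pdk4 (3.09 ± 0.47), Lpl (1.31 ± 0.40) and Cd36 (0.55 ± 0.19), and 4 lower, Aqp7 (-1.42 ± 0.20), Rbp7 (-1.99 ± 0.29), Gpihbp1 (-1.41 ± 0.23) and Fabp5 (-1.12 ± 0.23), with a median of -0.75. Car2, Lpl, Cd36, Gpihbp1 and Fabp5 were named after their values were seen. All genes named from these lists had limma adjusted p of at most 0.0182, and nothing particular to the lists was tested. The same comparison under the knockout label, beside 42.7% of all genes called (23.1% higher and 19.6% lower), gave 10 higher and 3 lower of 30 other adipocyte genes (43.3% called), 4 and 1 of 14 brown genes (35.7%) and 7 and 1 of 15 droplet genes (53.3%). The neutrophil markers, of which Retnlg is itself one, summed to 0.212 to 2.69 FPKM in hearts labelled wild-type, against 39.2 to 3125 FPKM in wild-type isoproterenol cardiomyocytes. The sum is therefore no separate measure for Retnlg, and the part of neutrophils in Retnlg and C3 was not tested.

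**Figure D5:**
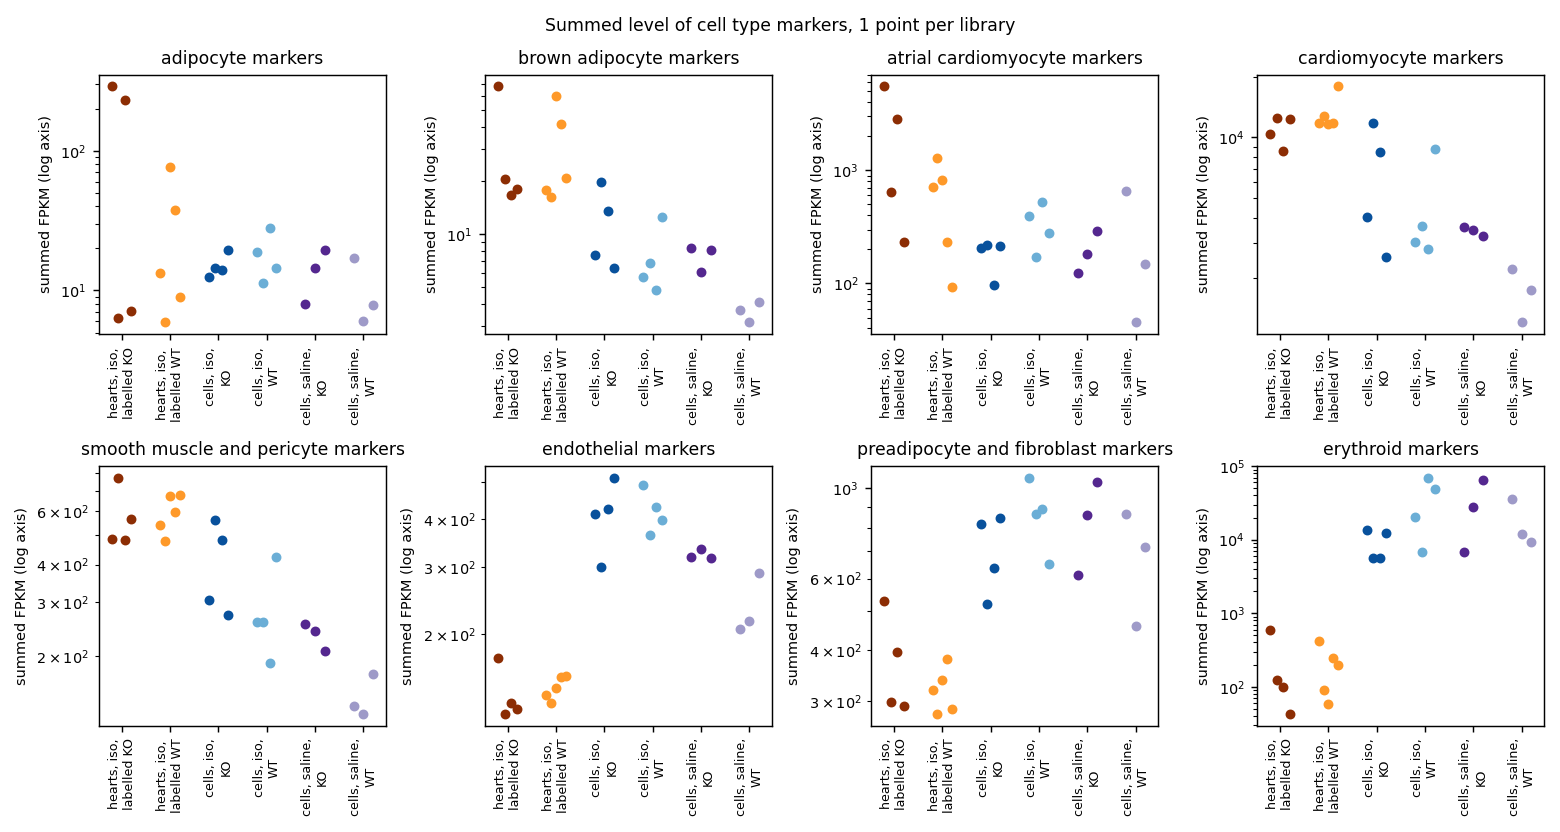
Summed FPKM of marker lists (log axes) in the 23 libraries, by group, 1 point per library. Adipocyte markers (7 of the members, Lipe among them) span 5.9 to 289 FPKM in the 9 hearts and 6.02 to 28.1 FPKM in the 14 cardiomyocyte libraries. Lipe, which did not follow Adipoq, gives 4.88 of the 5.9 FPKM in heart PNXM230 and 13.5 of the 14.6 FPKM in cardiomyocyte library PNXM648. On the deposited scale, endothelial and erythroid markers are higher in every cardiomyocyte library than in any heart.

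Between the genotype labels of the whole hearts no adipocyte gene was called. Adipoq, Plin1, Cidec, Cfd, Car3 and Ucp1 passed the filter over the hearts only with the fat-rich hearts, so the 8 members tested are a selected set. Hearts labelled knockout minus those labelled wild-type gave 1.11 ± 1.00 for Adipoq, 0.99 ± 0.99 for Plin1, 0.92 ± 1.05 for Cidec, 1.30 ± 1.69 for Cfd, 1.00 ± 1.37 for Car3, -0.35 ± 1.32 for Ucp1, -0.07 ± 0.15 for Pparg and 0.19 ± 0.24 for Lipe in log2(FPKM + 1). The limma adjusted p were 0.904 to 0.977, and 0 of 8 members were called beside 0% of 10189 genes (652 genes had an unadjusted p under 0.05, and voom on recovered reads called 0 under both scalings). Without PNXM199 the differences shrank to -0.0078 for Car3, 0.091 for Cfd, 0.099 for Cidec, 0.23 for Plin1 and 0.37 for Adipoq. Without PNXM229 each of them was larger, as Adipoq at 1.81. The difference for Cidec was -0.32 and -0.27 with voom, and that for Ucp1 ranged from -1.41 without PNXM199 to 0.43 without PNXM238.

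Of the 9 lists, 0 held a called gene between the labels either. The smallest p in each list gave Acsl1 (-0.29 ± 0.11), Lpl (-0.33 ± 0.16) and Lpin1 (-0.30 ± 0.15) among other adipocyte genes, Ucp2 (0.84 ± 0.21) and Pank1 (-0.37 ± 0.11) among brown and thermogenic genes, Fitm2 (-0.31 ± 0.12) among droplet genes and Rxrg (-0.35 ± 0.13) among transcription factors. They were Retnla (0.62 ± 0.57), Cfp (0.51 ± 0.23), Car11 (0.33 ± 0.10), Insr (-0.14 ± 0.23) and, again, Acsl1 in the other lists. All had limma adjusted p of 0.499 or more.

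In isolated cardiomyocytes Adipoq, Plin1, Ucp1, Retn and Lep rested on few reads (1 to 90 over all 14 libraries), while Cidec (253), Car3 (1256) and Cfd (714) had more. Adipoq summed to 86 reads over the 14 libraries, at 0.104 to 0.347 FPKM in knockout and 0.0743 to 0.479 FPKM in wild-type libraries after isoproterenol, and at 0.14 to 0.601 FPKM in knockout and 0.0186 to 0.703 FPKM in wild-type libraries after saline. Cfd was highest in PNXM647 (12.8 FPKM, wild-type, isoproterenol), PNXM649 (9.14 FPKM, wild-type, saline) and PNXM664 (8.39 FPKM, knockout, saline). These 3 libraries, of 3 different groups, also held the most Adipoq (0.479, 0.703 and 0.601 FPKM) and the most Car3 (5.6, 4.81 and 5.02 FPKM), and Ucp1 reached 1.23 FPKM (22 reads) in PNXM664 against at most 0.276 FPKM elsewhere. Over all 14 libraries the reads of Cfd came to 12.4 times those of Adipoq per length, those of Car3 to 7.04 times, of Cidec to 2.19 times, of Plin1 to 0.754 times and of Ucp1 to 0.596 times.

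Markers of other cells were unequal too. The 10 macrophage markers summed to 1151, 2058 and 962 FPKM in PNXM647, PNXM649 and PNXM664, against 368 to 642 FPKM in the other 11, and the erythroid markers to 69779, 35240 and 65568 FPKM, against 5569 to 48212 FPKM. Lung and airway markers summed to 191, 2857 and 324 FPKM in them and to 0.124 to 1578 FPKM in the others. Their part in the fat signal was not tested.

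Isoproterenol and saline were compared for the 5 members above the filter in cardiomyocytes. Adipoq, Plin1, Ucp1, Retn and Lep were below 1 FPKM in too many libraries to be tested. Lipe was at 13.2, 8.48, 11.7 and 13.5 FPKM in wild-type isoproterenol libraries PNXM644, PNXM645, PNXM647 and PNXM648, against 5.7, 5.66 and 6.84 FPKM in saline libraries PNXM649, PNXM657 and PNXM661. Pparg was at 8.55, 5.34, 7 and 5.22 FPKM in the same isoproterenol libraries, against 3.6, 3.09 and 3.96 FPKM in saline. Neither gene overlapped between the treatments, but how many of all genes did not overlap was not counted. The differences were 0.83 ± 0.19 for Lipe and 0.71 ± 0.19 for Pparg, and neither was called (limma adjusted p = 0.0654 and 0.0949). Before adjustment 2896 of all genes tested had a limma p under 0.05. Thus 0 of 5 members were called beside 0.705% of 11919 genes (0.654% higher and 0.0503% lower), which are 84 genes, 78 higher and 6 lower, with 0 or 1 left when any of PNXM644, PNXM647, PNXM648, PNXM657 or PNXM661 was left out, and 223 without PNXM645. The members Cidec (0.34 ± 0.33), Cfd (0.76 ± 0.83) and Car3 (0.38 ± 0.60) lay within about their own error.

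In knockout cardiomyocytes Lipe was at 10.2, 12.2, 12.3 and 14.7 FPKM after isoproterenol, against 7.19, 11.3 and 8.17 FPKM after saline, and overlapped. Pparg was at 8.09, 5.2, 7.51 and 8.32 FPKM after isoproterenol, against 4.84, 4.69 and 3.72 FPKM after saline. Its levels did not overlap, which was not counted over all genes. Endothelial (301 to 514 against 316 to 334 FPKM) and cardiomyocyte (2537 to 11772 against 3223 to 3604 FPKM) marker sums overlapped between these treatments, and their part was not tested. Cidec (-0.50 ± 0.33), Cfd (-0.18 ± 0.83) and Car3 (-0.45 ± 0.60) were not called. The differences of Lipe and Pparg were 0.44 ± 0.19 and 0.60 ± 0.19, both with a limma adjusted p of 0.582, and 0 of 5 members were called beside 0% of 11919 genes (807 before adjustment; voom under both scalings gave 0). The test of the difference between the responses of the genotypes gave -0.39 ± 0.27 for Lipe and -0.11 ± 0.26 for Pparg and called 0 of 5 members beside 0% of genes (294 at an unadjusted p under 0.05). Without PNXM645 the wild-type response of Lipe had an adjusted p of 0.0254. The wild-type responses depended on scale: with totals set equal outside mitochondrial genes, where the median of all genes was -0.52, Lipe was at 0.14 and Pparg at 0.07, and with library size alone, where it was -1.13, they were at -0.26 and -0.34. The split of all calls turned over with them, to 11 higher and 1742 lower with the totals set equal and 9 higher and 7863 lower with library size alone. The difference between the genotypes reversed to 0.44 for Lipe and 0.66 for Pparg with the totals set equal, at a median of 0.66.

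Genotype made no called difference to the members in cardiomyocytes. After isoproterenol, knockout minus wild-type was -0.52 ± 0.30 for Cidec, -0.60 ± 0.77 for Cfd, -0.43 ± 0.55 for Car3, 0.14 ± 0.17 for Pparg and 0.08 ± 0.18 for Lipe (limma adjusted p of 0.797 to 0.953), with 0 of 5 called beside 0% of 11919 genes (739 at an unadjusted p under 0.05). After saline it was 0.32 ± 0.35 for Cidec, 0.35 ± 0.88 for Cfd, 0.41 ± 0.64 for Car3, 0.25 ± 0.20 for Pparg and 0.47 ± 0.21 for Lipe (adjusted p of 0.895 to 0.937), with 0 of 5 called beside 0% (421 at an unadjusted p under 0.05). With reads scaled by library size alone, voom called 5973 genes after isoproterenol, Pparg (1.01) and Lipe (0.94) among them, and 5955 after saline, with medians of all genes at 0.86 and -0.97. With the sizes of the deposited values it called 0 in both.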

How the data were processed

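RNA was sequenced from 9 whole hearts and 14 cardiomyocyte preparations. Alignment with HISAT2 2.0.5 and counting with featureCounts come from the submitters' processing notes, and the authors deposited FPKM for 46077 genes. The genome build was not given in the sources used here, but 99.9% of 45142 identifiers shared with GENCODE M21 overlap their position there on GRCm38. A misaligned line was left out (1 in all). Among 392415 values none was over 2.1e-06 from a whole number of reads, so read counts were recovered from the deposited FPKM. The library sizes these imply are 0.43 to 1.88 times the assigned reads, a scaling that no source used here describes. Whole heart is the reading given to the header WHO, and columns were placed in groups by their header.

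limma 3.58.1 (R 4.3.3) was fitted to log2(FPKM + 1) with a trend, separately over the 17 isoproterenol libraries, the 9 hearts and the 14 cardiomyocyte libraries. Genes needed 1 FPKM in 4 libraries (3 in cardiomyocytes), and Benjamini-Hochberg adjusted p, two-sided, were called below 0.05 over all genes. Fold changes on this scale understate those of low genes. The fits were tested on simulated data first. Values after ± are SE for differences and SD for levels. Floors and low read numbers cover counting error only.

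The members and lists were chosen with earlier results of these data known. Named are all members, genes of smallest p in each list (up to 4 by preparation and 3 by label) and the 10 protein-coding genes most like Adipoq. The design named a permutation p for that likeness, which is not given because the hearts form separate clusters. No source ties libraries to separate animals or cultures, so p-values measure the spread between libraries, which may be technical. Alternatives were a pseudocount of 0.1, no filter, totals equal outside mitochondrial genes, other sets of groups, each library left out, and voom on recovered reads by library size alone or, chosen after seeing the data, by the deposited sizes.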

Additional observations from a re-analysis of the deposited data

Results flagged for a closer look

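Ucp1 in heart PNXM199, labelled knockout, was at 25.4 FPKM, far above the other 3 hearts of its label (0 to 1.68 FPKM), a gap of 0.934 of the range of the group. Adipoq in the wild-type isoproterenol cardiomyocyte library PNXM647 was at 0.479 FPKM, on 7 reads, against 0.0743 to 0.119 FPKM in the other 3 libraries, a gap of 0.889 of the range. These were 2 of 38 groups of values examined, and chance gives such a gap in about 1 in 20 groups.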

How the results depend on the processing

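No paired analysis was possible because the columns carry no replicate number. With voom and library size alone, calls numbered 9753 (9244 higher, 509 lower) and 8445 (7841 higher, 604 lower, 0 members) for hearts against cells under the wild-type and knockout labels, 5973 (2 members) and 5955 for genotype in isoproterenol and saline cells, 7872 (9 higher, 7863 lower) for isoproterenol in wild-type cells, 3608 (1 member) for the difference between preparation effects and 9953 (2 members) for that between isoproterenol responses. Under it these differences reversed: hearts against cells, Pparg 0.97 and Lipe 0.86 in wild-type, 0.032 and 0.30 in knockout; hearts by label, Cidec -0.27 and Pparg 0.072; genotype in isoproterenol cells, Cfd 0.087 and Car3 0.16; in saline cells, Cidec -0.30, Pparg -0.68 and Lipe -0.46. So did isoproterenol in wild-type cells (Cidec -0.27, Pparg -0.34, Car3 -0.13, Lipe -0.26) and knockout cells (Cfd 0.73, Car3 0.015), the difference of preparation effects (Lipe -0.56) and that of isoproterenol responses (Pparg 1.70, Car3 0.14, Lipe 1.40). With voom and the deposited sizes, chosen after seeing the data, Cidec by label (-0.32) and Cfd in the knockout response (0.42) reversed. With totals equal outside mitochondrial genes, 0 members were called for wild-type hearts against cells, 1753 genes (11 higher, 1742 lower) for isoproterenol in wild-type cells, and Pparg by label (0.0096), Pparg (-0.17) and Lipe (-0.0039) by genotype in saline, Cfd in the knockout response (0.013), Lipe in the preparation difference (-0.16) and Pparg (0.66) and Lipe (0.44) in the response difference reversed. A pseudocount of 0.1 reversed Cfd in the knockout response (0.019). Without a filter 10 genes were called by genotype in saline cells and 6 for the preparation difference, with only the compared groups 2 for isoproterenol in wild-type cells, and with all 23 libraries 31 for the response difference. The cause of these changes was not tested.

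With each library left out, hearts against cells gave 6645 to 7396 calls (1 to 2 members) in wild-type and 3838 to 5565 (1 to 6 members) in knockout, and hearts by label 0 to 2. Isoproterenol in wild-type cells, with 84 calls in all, gave 0 without PNXM644, PNXM647, PNXM648 or PNXM661, 1 without PNXM657, 85 without PNXM649 and 223 without PNXM645 (0 to 1 members). Genotype in saline cells, the knockout response and the response difference gave 0 to 1, and the preparation difference 0 to 6. Ranges that crossed 0 were, in wild-type hearts against cells, Cidec -0.057 to 0.71 and Cfd -0.062 to 1.20; by label, Ucp1 -1.41 to 0.43, Pparg -0.15 to 0.033, Car3 -0.0078 to 2.02 and Lipe -0.038 to 0.33. By genotype they were Lipe -0.060 to 0.16 in isoproterenol cells and Cfd -0.42 to 1.34 and Car3 -0.12 to 1.11 in saline cells. They were Car3 -0.028 to 1.08 in the wild-type response, Cfd -0.84 to 0.58 and Car3 -0.94 to 0.074 in the knockout response, Ucp1 -1.42 to 0.41 and Lipe -0.11 to 0.25 in the preparation difference and Pparg -0.20 to 0.027 in the response difference. Of 10188 genes that passed the filter over the hearts, 114 had an r with Adipoq of at least 0.9, 79 without the 2 farthest hearts.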
